A study of Mus musculus with 6 samples.

Results

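The genes of cholesterol and fatty acid synthesis were examined in the lung of mouse pups at postnatal day 6, with the human sex-determining gene SRY either switched on or left silent. A list of 35 gene symbols was set out, covering the enzymes of the mevalonate and sterol pathways, their transcriptional regulators, and enzymes that make, desaturate, elongate and esterify fatty acids. Every probe whose symbol on the array equalled a listed symbol was taken, which gave 43 probes for 30 genes, of 25697 probes for 18138 symbols. Of the other listed genes, Hmgcs1, Mvk, Fdft1 and Acaca were not analysed here, and Me1 was present only under the older symbol Mod1. The Mod1 probe was not detected on any array.

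Total RNA from the lungs of male mice of strain FVB (FVB/N in the study's methods) was read on Illumina MouseRef-8 arrays from 3 mice of each group. As the methods of the study describe them, hSRY-OFF mice carry the Signalox-hSRY transgene in its silent form, in which the CAG promoter drives the red fluorescent protein DsRed2. In hSRY-ON mice, Cre recombinase from the eggs of Ddx4-Cre mothers had removed DsRed2 in the single-cell embryo, so that the same promoter drives FLAG-tagged human SRY together with EGFP in tissues throughout the body. The hSRY-ON mice on the arrays had not inherited Ddx4-Cre themselves, the transgene is a single targeted insertion in a single line, and the study also calls its comparison animals controls, a name it uses for littermates without the transgene. The array holds no probe for human SRY, so the state of the transgene was not read from these data. An array detected between 13191 and 14134 probes, and no pair of arrays held identical values. The hSRY-ON arrays differed more among themselves than the hSRY-OFF arrays did. The correlation between arrays over probes was 0.991 to 0.993 within hSRY-OFF and 0.972 to 0.980 within hSRY-ON, and the median SD of a member probe was 0.165 in hSRY-OFF and 0.246 in hSRY-ON on the log2 scale. Over all tested probes these median SDs were 0.13 and 0.223.

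Cells build cholesterol from acetyl-CoA through mevalonate, isoprenoid units, squalene and lanosterol, and fatty acids from the same starting compound. Both routes are switched on by the SREBP transcription factors (Srebf1, Srebf2), which are carried by Scap from the endoplasmic reticulum to the Golgi when sterols are low and are held back by the Insig proteins when sterols are high. In the lung these routes supply the membranes of growing cells and the saturated phospholipids of surfactant, which alveolar type II cells make.

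Stard4, Insig1, Nsdhl, Cyp51, Scd1, Fads1, Fads2 and Elovl6 were lower in the hSRY-ON lung, by 1.45-fold to 2.77-fold, and Pmvk was 1.97-fold higher. These are the 9 of 28 testable member genes past the threshold (limma, adjusted p under 0.05, with the brightest tested probe standing for its gene). Of all 10292 genes tested the same way 27.9% passed, 12.9% lower and 14.9% higher, against 28.6% lower and 3.57% higher among the members. The median change of the 28 genes was -0.34 on the log2 scale, within a range of -1.47 to 0.98, and 19 of the 28 (67.9%) had a change below 0, beside a median of -0.01 and 50.8% below 0 over all genes. The groups did not overlap for 18 of the 28 genes, against 48.2% of all genes.

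Counted by probe, 13 of the 38 tested member probes were called, 12 lower and 1 higher, which is 34.2% beside 26.9% of all 13841 tested probes. For lower calls alone the share was 31.6% among the members and 13.3% among all tested probes, where 13.6% were called higher. The groups did not overlap for 24 of the 38 member probes (63.2%), against 46.6% of all tested probes, of which 53.2% had a change below 0. The plot of changes by probe shows these 38 values by role. The other 5 of the 43 probes were detected on fewer than 3 of the 6 arrays and were not tested. They were the only probes of Idi1 and Fasn and an additional probe each of Srebf1, Insig1 and Insig2.

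**Figure D1:**
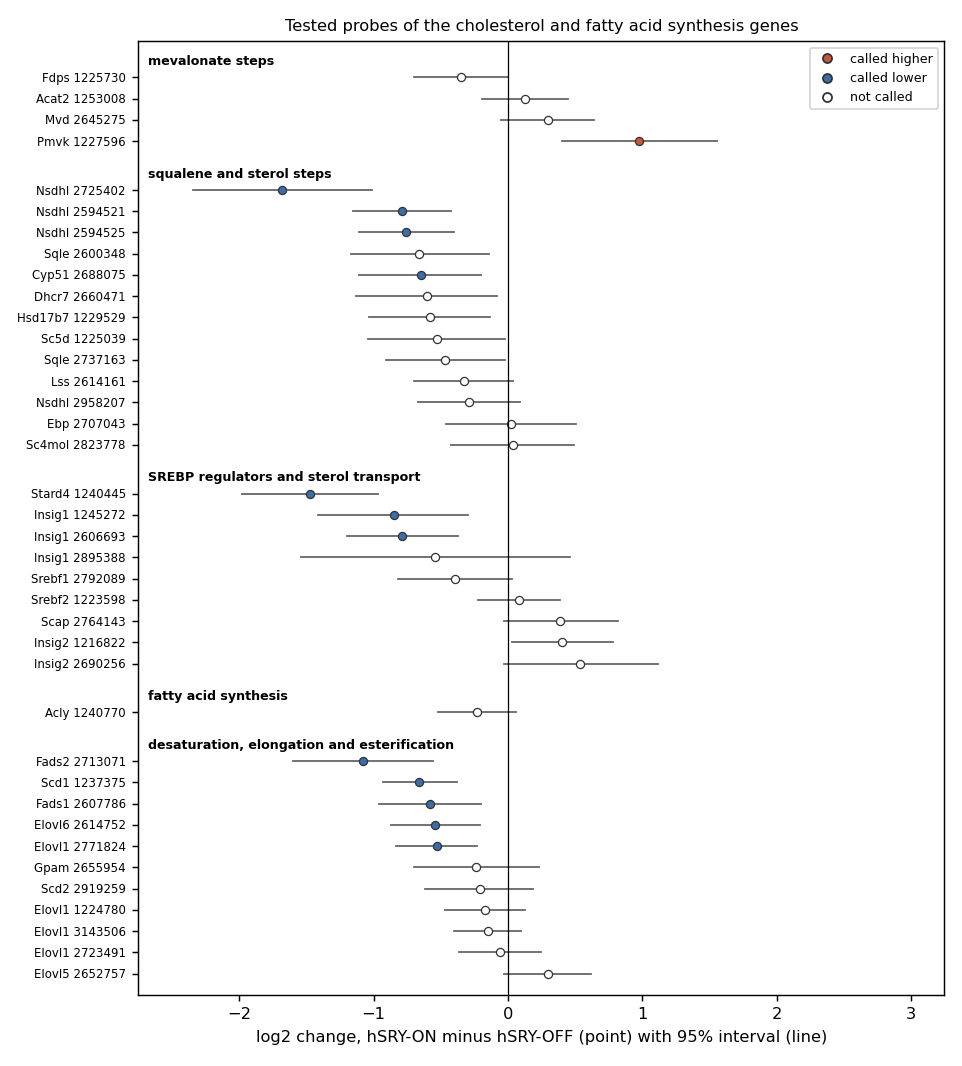
Change of each tested member probe, as normalized log2 intensity in hSRY-ON minus hSRY-OFF (x axis), with its 95% interval, grouped by role. Each line names the gene and the number of the probe, filled points passed the threshold of 0.05 on the adjusted p, and 12 of the 13 filled points lie below 0, with Pmvk the exception.

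How many member probes passed depended on the arrays included. Without hSRY-OFF replicate 1 the count fell from 13 to 3 (7.89%, beside 11.9% of all probes), and without hSRY-OFF replicate 2 it was 5 (13.2%, beside 12.6%). It was 8 without hSRY-OFF replicate 3 (21.1%, beside 16.1%) and 8 without hSRY-ON replicate 2 (21.1%, beside 17.8%), 13 without hSRY-ON replicate 1 (34.2%, beside 32.1%) and 16 without hSRY-ON replicate 3 (42.1%, beside 27.6%). The single higher call, Pmvk, was lost on leaving out any of the hSRY-OFF arrays or hSRY-ON replicate 2, and without hSRY-ON replicate 3 there were 2 higher calls, the other being Insig2. The median change stayed below 0 in each of these 6 fits, between -0.41 and -0.24.

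Promoter sequence is shown for called members of opposite direction, since SREBP-driven promoters are known to hold sterol regulatory elements beside boxes for the factor NF-Y. The windows are the 250 bases before the annotated start of transcription, from RefSeq on assembly GRCm38.p6, written 5′ to 3′ along the gene. Of the member genes, 28 had an entry, with 39 windows between them. Stard4, Scd1 and Fads1, which were called lower, had no entry in the set used. Capitals mark TCACNCCAC (a sterol regulatory element), CCAAT (the NF-Y box), CACGTG (an E-box) and AACAAT or AACAAA (motifs bound by SRY and its SOX relatives, which differ in the last base), each sought on both strands. Insig1, Nsdhl and Cyp51 were called lower, and Pmvk was called higher.
Insig1 (chr5:28071162-28071411, + strand): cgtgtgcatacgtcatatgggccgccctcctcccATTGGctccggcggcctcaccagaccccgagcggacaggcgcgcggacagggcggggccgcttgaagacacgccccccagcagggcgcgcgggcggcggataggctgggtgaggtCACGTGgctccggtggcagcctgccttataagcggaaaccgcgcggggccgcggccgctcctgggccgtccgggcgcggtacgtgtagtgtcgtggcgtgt
Nsdhl (chrX:72918271-72918520, + strand): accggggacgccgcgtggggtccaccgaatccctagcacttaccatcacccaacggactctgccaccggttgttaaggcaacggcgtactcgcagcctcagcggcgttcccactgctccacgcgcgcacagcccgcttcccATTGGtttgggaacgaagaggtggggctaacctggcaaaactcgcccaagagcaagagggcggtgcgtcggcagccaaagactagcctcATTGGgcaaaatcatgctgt
Cyp51 (chr5:4104698-4104947, - strand): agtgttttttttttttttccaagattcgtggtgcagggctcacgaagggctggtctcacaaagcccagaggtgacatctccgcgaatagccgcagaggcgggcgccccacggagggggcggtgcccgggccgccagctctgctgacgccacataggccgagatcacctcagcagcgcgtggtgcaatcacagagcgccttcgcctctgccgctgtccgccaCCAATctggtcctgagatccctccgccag
Pmvk (chr3:89454291-89454540, + strand): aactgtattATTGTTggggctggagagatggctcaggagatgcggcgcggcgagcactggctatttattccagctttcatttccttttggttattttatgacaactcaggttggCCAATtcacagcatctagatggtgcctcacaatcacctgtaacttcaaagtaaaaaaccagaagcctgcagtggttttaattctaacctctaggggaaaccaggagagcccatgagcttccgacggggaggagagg

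The CCAAT box stood in all 4 of these windows, as ATTGG where it lay on the opposite strand. It was absent from the windows of Fads2 and Elovl6, also called lower. The Fads2 window held none of the capitalised motifs, and the Elovl6 window held AACAAA. The CCAAT box occurred in 59% of the 39 member windows and 33.8% of the 32851 windows of all genes. The SP1-type GC box GGGCGG, not capitalised here, was in 69.2% of member windows and 32.7% of all. Insig1 also held the E-box, found in 15.4% of member windows and 6.02% of all windows. Letters of a sterol regulatory element were found in 1 member window (2.56%, beside 1.05% of all), that of Hmgcs1, which was not measured here. AACAAT was found in 1 member window, the Pmvk window shown, where it reads ATTGTT. That is 2.56% of member windows and 9.42% of all windows, and AACAAA occurred in 12.8% and 18% of them. A further Pmvk window, at a start downstream of the one shown, held none of these motifs. A match describes the letters of the window and was not tested as a binding site.

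The enzymes that lead from acetyl-CoA to farnesyl diphosphate did not share a direction. Of 4 genes tested, 1 was called (25%, beside 27.9% of all genes), and their median change was 0.21. Pmvk, the phosphomevalonate kinase, was the exception to the lower calls of the list. Its normalized log2 intensity (probe ILMN_1227596) was 7.89, 7.65 and 7.88 in hSRY-OFF and 8.86, 9.25 and 8.26 in hSRY-ON. Every hSRY-ON value lay above every hSRY-OFF value, with replicate 3 the lowest of its group. The means were 7.81 ± 0.134 and 8.79 ± 0.499 (SD, n = 3), a change of 0.98 ± 0.246 (SE, limma, adjusted p = 0.0269). The adjusted p was 0.076, 0.0964 and 0.0672 without hSRY-OFF replicates 1, 2 and 3 and 0.0595 without hSRY-ON replicate 2, and with 1 scaling factor per array and no background correction the change was 0.62.

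The other mevalonate enzymes did not pass. Fdps, farnesyl diphosphate synthase, read 11.99, 11.62 and 11.70 in hSRY-OFF and 11.56, 11.25 and 11.45 in hSRY-ON. These groups did not overlap, and the change of -0.35 had a 95% interval of -0.70 to 0.00 (limma, adjusted p = 0.122). Mvd, which makes isopentenyl diphosphate, had a change of 0.30 (-0.05 to 0.64, adjusted p = 0.177), also without overlap. Acat2, which condenses acetyl-CoA units, had a change of 0.13 (-0.19 to 0.45, adjusted p = 0.496), with hSRY-ON replicate 3 inside the hSRY-OFF range. Idi1, which isomerises isopentenyl diphosphate, was detected on 1 hSRY-OFF array only and was not tested.

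The enzymes after farnesyl diphosphate lay mostly below 0. Of 9 genes tested, Nsdhl and Cyp51 were called lower and none was called higher. That is 22.2% called, all lower, beside 27.9% of all genes called and 12.9% called lower. The median change was -0.53, with 7 of the 9 below 0 (77.8%, beside 50.8% of all genes). Nsdhl, which takes part in removing the methyl groups at carbon 4 of the sterol ring, was measured by 4 probes. The brightest (ILMN_2594525) read 9.05, 8.88 and 9.02 in hSRY-OFF and 8.11, 8.07 and 8.51 in hSRY-ON. The groups were apart on that probe, and the means of 8.99 ± 0.0884 and 8.23 ± 0.242 (SD, n = 3) differed by -0.76 ± 0.152 (SE, limma, adjusted p = 0.0127), or 1.69-fold. Of the other 3 probes, ILMN_2594521 changed by -0.79 (adjusted p = 0.0121), ILMN_2725402 by -1.68 (adjusted p = 0.00733) and ILMN_2958207 by -0.29 (adjusted p = 0.219). The last of these and ILMN_2725402 were each detected on only 2 of the hSRY-ON arrays, and without background correction the change of ILMN_2725402 was -0.65. Leaving out hSRY-OFF replicate 1 ended the call of the brightest probe (adjusted p = 0.0567) and of ILMN_2594521 (adjusted p = 0.055).

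Cyp51, the lanosterol demethylase, was lower by 1.57-fold. Its probe (ILMN_2688075) read 9.34, 9.01 and 9.05 in hSRY-OFF and 8.63, 8.10 and 8.70 in hSRY-ON. Replicate 2 was the lowest of the hSRY-ON mice and no value overlapped with hSRY-OFF. The means of 9.13 ± 0.179 and 8.48 ± 0.329 (SD, n = 3) differed by -0.65 ± 0.192 (SE, limma, adjusted p = 0.0439), close to the threshold. The adjusted p was 0.147, 0.0958 and 0.0915 without hSRY-OFF replicates 1, 2 and 3, 0.0873 without hSRY-ON replicate 2, 0.0576 under cyclic loess normalization and 0.0626 with no filter on detection.

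Several neighbours of these enzymes missed the threshold with changes of like size. Hsd17b7, which reduces the sterol ketone in the same demethylation, read 10.62, 10.35 and 10.63 in hSRY-OFF and 9.73, 9.79 and 10.34 in hSRY-ON. Its groups were apart by a narrow gap, between hSRY-OFF replicate 2 and hSRY-ON replicate 3, and its change was -0.58 (95% interval -1.03 to -0.13, limma, adjusted p = 0.0631). Dhcr7, which makes cholesterol from 7-dehydrocholesterol, had a change of -0.60 (-1.13 to -0.08, adjusted p = 0.0845), again without overlap. Sqle, the squalene epoxidase, had 2 probes, with changes of -0.47 (adjusted p = 0.109) and -0.66 (adjusted p = 0.0651). Sc5d, a sterol desaturase, had a change of -0.53 (-1.04 to -0.02, adjusted p = 0.113) and Lss, lanosterol synthase, one of -0.33 (-0.70 to 0.04, adjusted p = 0.163), both with overlap between the groups. At the other end, the change of Sc4mol, the sterol C4 methyl oxidase now named Msmo1, was 0.04 (-0.42 to 0.49, adjusted p = 0.908), and that of Ebp, a sterol isomerase, was 0.02 (-0.46 to 0.51, adjusted p = 0.94). Those intervals leave room for changes of either sign.

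Among the regulators, Insig1 and the sterol carrier Stard4 were lower, and the SREBP genes themselves did not pass. Stard4, a carrier that moves cholesterol between membranes within the cell, had the largest change of the members' representative probes. Its probe (ILMN_1240445) read 9.77, 9.26 and 9.27 in hSRY-OFF and 8.28, 7.63 and 7.98 in hSRY-ON. A gap of nearly a whole log2 unit separated the lowest hSRY-OFF mouse from the highest hSRY-ON mouse. The means of 9.43 ± 0.291 and 7.96 ± 0.323 (SD, n = 3) differed by -1.47 ± 0.214 (SE, limma, adjusted p = 0.00468), a 2.77-fold difference. It was called under each of the 17 alternatives tried, with adjusted p between 0.00106 and 0.0207.

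Insig1, which holds Scap back and is itself switched on by SREBPs, was lower on 2 of its 3 tested probes. The brightest (ILMN_1245272) read 9.64, 9.42 and 8.96 in hSRY-OFF and 8.44, 8.17 and 8.86 in hSRY-ON. The groups came close at hSRY-OFF replicate 3 and hSRY-ON replicate 3 without overlapping. Means of 9.34 ± 0.345 and 8.49 ± 0.348 (SD, n = 3) gave a change of -0.85 ± 0.236 (SE, limma, adjusted p = 0.0368), or 1.81-fold. ILMN_2606693 changed by -0.79 (adjusted p = 0.0183), and ILMN_2895388, detected on 1 hSRY-ON array, by -0.54 (adjusted p = 0.38). The call of the brightest probe was lost without hSRY-OFF replicates 1 and 2 (adjusted p = 0.122 and 0.116), without hSRY-ON replicates 1 and 2 (adjusted p = 0.0628 and 0.104) and with no filter on detection (adjusted p = 0.0552). That of ILMN_2606693 was lost without hSRY-OFF replicates 1 and 2 (adjusted p = 0.076 and 0.0713).

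Insig2, the relative of Insig1 with the same hold on Scap, had values on the other side. Its brightest probe (ILMN_1216822) read 8.84, 8.79 and 8.75 in hSRY-OFF and 9.40, 9.30 and 8.88 in hSRY-ON. No hSRY-ON value fell within the hSRY-OFF range, but replicate 3 lay just above it. The change was 0.40 (95% interval 0.03 to 0.78, limma, adjusted p = 0.101), and without hSRY-ON replicate 3 it was 0.56 (adjusted p = 0.0181). The other tested probe had a change of 0.54 (adjusted p = 0.14).

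Srebf1, the SREBP gene tied most closely to fatty acid synthesis, read 7.04, 6.80 and 6.40 in hSRY-OFF and 6.22, 6.38 and 6.46 in hSRY-ON on its tested probe. The groups overlapped at hSRY-OFF replicate 3, and the change was -0.39 (-0.82 to 0.03, limma, adjusted p = 0.149), or -0.16 without background correction. Srebf2, the SREBP gene tied most closely to cholesterol synthesis, read 9.60, 9.46 and 9.51 in hSRY-OFF and 9.44, 9.77 and 9.61 in hSRY-ON. Its groups overlapped, with a change of 0.08 (-0.22 to 0.39, adjusted p = 0.661). Scap read 7.50, 7.85 and 7.33 in hSRY-OFF and 8.17, 7.94 and 7.74 in hSRY-ON, with a change of 0.39 (-0.03 to 0.82, adjusted p = 0.147). Its highest hSRY-OFF mouse lay above its lowest hSRY-ON mouse. These are RNA levels, and the cleavage that makes SREBPs active was not measured.

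**Figure D2:**
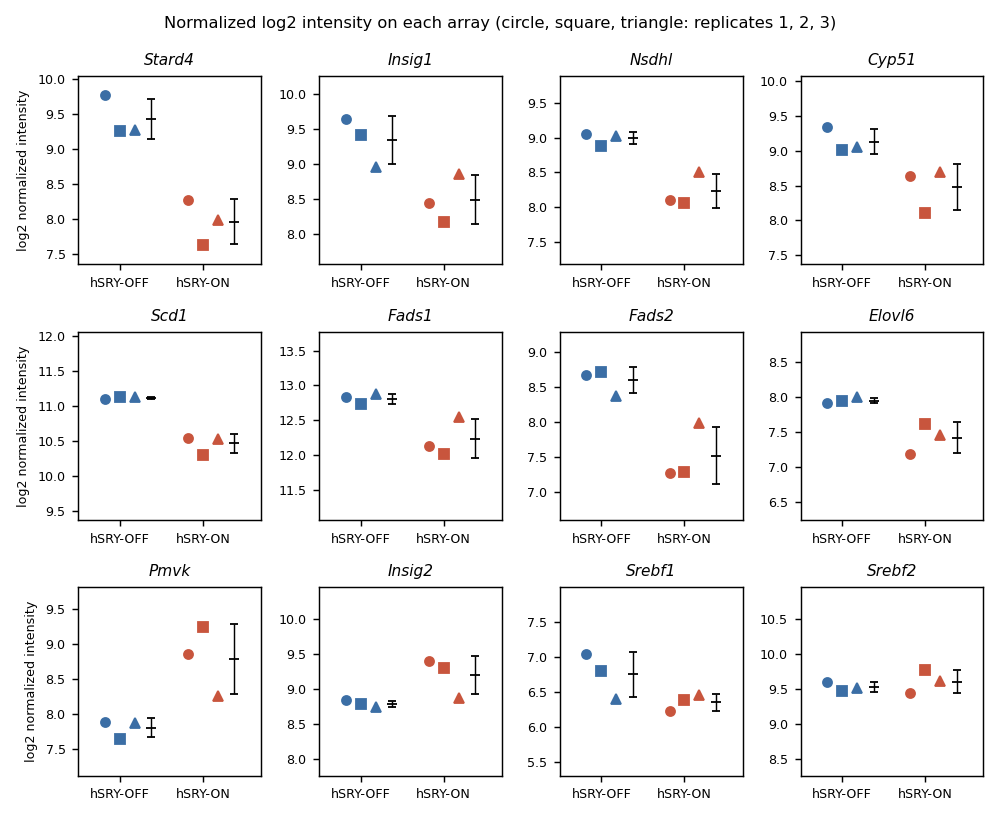
Normalized log2 intensity (y axis, each panel spanning the same number of log2 units) of 12 member genes on each array, with circle, square and triangle for replicates 1, 2 and 3. Bars give the mean and SD of 3 mice, and the panels of the 8 genes called lower show no overlap between the groups, while Srebf1 and Srebf2 overlap.

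Among the members, the enzymes of fatty acid synthesis were poorly covered, and Acaca was not analysed here. Fasn, the fatty acid synthase, read 5.10, 4.96 and 5.28 in hSRY-OFF and 5.45, 4.70 and 4.69 in hSRY-ON. It was not detected above background on any array, so no change is given. Acly, which makes cytosolic acetyl-CoA from citrate for both pathways, was the one tested gene of this group. It read 13.00, 13.04 and 13.08 in hSRY-OFF and 12.64, 12.92 and 12.86 in hSRY-ON. All 3 hSRY-ON mice lay below the hSRY-OFF mice by a small margin, and the change of -0.23 did not pass (-0.52 to 0.06, limma, adjusted p = 0.203).

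The enzymes that desaturate and elongate fatty acids held 4 of the 8 genes called lower, and none was called higher. These 4 were 50% of the 8 genes tested in this group, beside 12.9% of all genes called lower. Of the 8 genes tested 7 had a change below 0 (87.5%, beside 50.8% of all genes), with a median of -0.39. Scd1, which inserts the first double bond into stearic and palmitic acid, read 11.10, 11.12 and 11.12 in hSRY-OFF and 10.54, 10.30 and 10.53 in hSRY-ON (ILMN_1237375). The hSRY-OFF mice were nearly alike and each hSRY-ON mouse lay well below them. Means of 11.11 ± 0.0142 and 10.46 ± 0.134 (SD, n = 3) gave a change of -0.66 ± 0.118 (SE, limma, adjusted p = 0.00905), or 1.58-fold. It was called under each of the 17 alternatives, with adjusted p between 0.00189 and 0.045. Its close relative Scd2 read 10.13, 10.15 and 10.14 in hSRY-OFF and 9.56, 10.12 and 10.10 in hSRY-ON. Only hSRY-ON replicate 1 stood clearly below the hSRY-OFF mice, and the change of -0.21 did not pass (-0.62 to 0.19, adjusted p = 0.389). Whether probes of these near-identical genes bind each other's RNA was not checked.

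Fads2, the delta-6 desaturase that opens the route to long polyunsaturated fatty acids, was the most changed enzyme of this group. Its probe (ILMN_2713071) read 8.68, 8.72 and 8.38 in hSRY-OFF and 7.27, 7.29 and 7.99 in hSRY-ON. Replicate 3 was the highest of the hSRY-ON mice and still below every hSRY-OFF mouse. Means of 8.60 ± 0.187 and 7.52 ± 0.41 (SD, n = 3) differed by -1.08 ± 0.22 (SE, limma, adjusted p = 0.0134), or 2.11-fold, and by -0.70 without background correction. The adjusted p was 0.0562 and 0.0573 without hSRY-OFF replicates 1 and 2.

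Fads1, the delta-5 desaturase of the same route, was lower by 1.49-fold. It read 12.83, 12.74 and 12.88 in hSRY-OFF and 12.14, 12.02 and 12.55 in hSRY-ON (ILMN_2607786). The same hSRY-ON mouse, replicate 3, came nearest to the hSRY-OFF mice. Means of 12.81 ± 0.0719 and 12.24 ± 0.277 (SD, n = 3) differed by -0.58 ± 0.161 (SE, limma, adjusted p = 0.0378). This call was lost when any array other than hSRY-ON replicate 3 was left out (adjusted p = 0.0685 to 0.114), under median scaling (-0.45, adjusted p = 0.109) and with 1 scaling factor per array and no background correction (adjusted p = 0.0525).

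Elovl6, which lengthens palmitic to stearic acid, read 7.92, 7.94 and 8.00 in hSRY-OFF and 7.18, 7.61 and 7.46 in hSRY-ON (ILMN_2614752). Here replicate 1 was the lowest hSRY-ON mouse, and the groups did not overlap. Means of 7.95 ± 0.0387 and 7.42 ± 0.218 (SD, n = 3) differed by -0.54 ± 0.14 (SE, limma, adjusted p = 0.031), or 1.45-fold, and by -0.32 without background correction. Leaving out any hSRY-OFF array brought the adjusted p to between 0.0938 and 0.0987.

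The 4 probes of Elovl1, an elongase of saturated and very long chains, did not give the same call. ILMN_2771824 read 10.43, 10.54 and 10.38 in hSRY-OFF and 9.85, 9.81 and 10.09 in hSRY-ON. It changed by -0.53 ± 0.127 (SE, limma, adjusted p = 0.0234), a call lost on leaving out hSRY-ON replicate 2 or any hSRY-OFF array (adjusted p = 0.0589 to 0.0955), while the other 3 had changes of -0.06 to -0.17 with adjusted p from 0.317 to 0.773. Elovl5, which elongates polyunsaturated chains, was the one gene of the group above 0, with 12.88, 12.87 and 12.99 in hSRY-OFF and 13.22, 13.41 and 13.00 in hSRY-ON. Its hSRY-ON replicate 3 narrowly exceeded the highest hSRY-OFF mouse, and the change of 0.30 did not pass (-0.03 to 0.62, adjusted p = 0.152). Gpam, which starts the esterification of fatty acids to glycerol, had a change of -0.24 (-0.70 to 0.23, adjusted p = 0.401) with overlapping groups.

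Among the hSRY-ON mice, replicate 3 stood nearest to the hSRY-OFF mice for most of the called genes. Of the 8 genes called lower, the lowest hSRY-ON value was that of replicate 2 for 6 genes, of replicate 1 for 2 and of replicate 3 for 0, and the highest was that of replicate 3 for 5 genes. Taken over all 28 genes, each as its deviation from the hSRY-OFF mean, the median was 0.08, -0.09 and 0.01 in the hSRY-OFF mice and -0.36, -0.36 and -0.28 in the hSRY-ON mice. Over all 10292 genes it lay within 0.01 of 0 on every array. For the 9 squalene and sterol genes the hSRY-ON medians were -0.50, -0.73 and -0.32, and the hSRY-OFF medians 0.11, -0.18 and 0.04. For the 8 desaturation, elongation and esterification genes they were -0.58, -0.26 and -0.32, against -0.01, 0.01 and 0.01. Replicate 2 was thus the lowest for the sterol genes and replicate 1 for the fatty acid genes. The 4 mevalonate genes had hSRY-ON medians of 0.16, 0.38 and 0.10, all above the hSRY-OFF values of 0.05, -0.15 and 0.08, and the 6 regulators and carriers had medians of -0.30, -0.06 and -0.10, which overlapped with 0.19, 0.03 and -0.20.

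**Figure D3:**
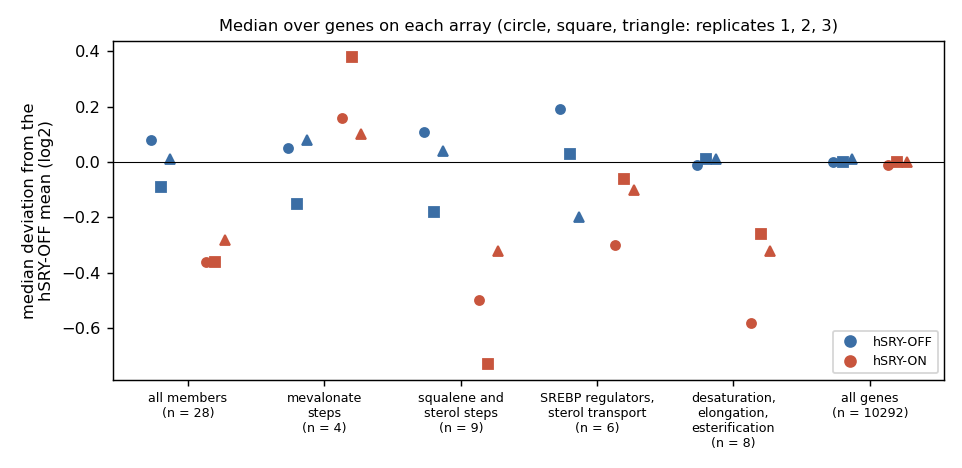
Median over genes of the deviation from the hSRY-OFF mean, in log2 units (y axis), on each array and for each role group (x axis, with the number of genes), with all tested genes at the right. The 3 hSRY-ON arrays lie below the 3 hSRY-OFF arrays for all members, the squalene and sterol steps and the desaturation group, and all 6 arrays lie near 0 over all genes.

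The strength of the calls differed between members, as the plot of adjusted p with an array left out shows. Stard4 and Scd1 were called in each of these 6 fits. Nsdhl lost its call on the brightest probe in 1 of them, Fads2 in 2, Elovl6 in 3, and Pmvk, Insig1 and Cyp51 in 4 each, and Fads1 in 5. Of the 9 called genes, none changed direction under any alternative.

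**Figure D4:**
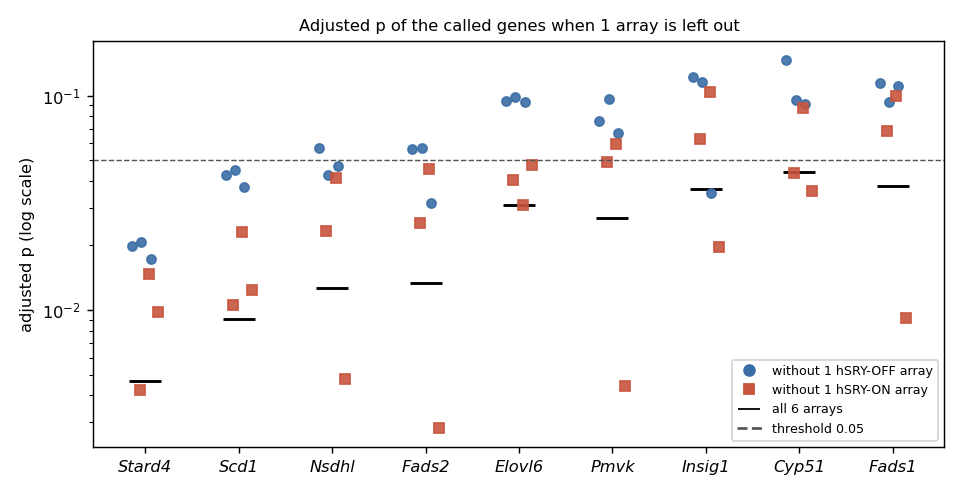
Adjusted p (y axis, log scale) of the 9 called member genes, 1 probe each, with all 6 arrays (black bars) and with 1 array left out (blue circles for a hSRY-OFF array, red squares for a hSRY-ON array). Stard4 and Scd1 stay below the dashed threshold of 0.05 throughout, while Fads1 lies above it in 5 of the 6 fits.

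A list of further sterol and lipid genes held mostly higher calls. It was chosen by place in the pathways, with earlier results of these data known. Of 72 genes listed 68 were on the array, 59 were tested, and 14 were called (23.7%, beside 27.9% of all genes), 13 higher (22%, beside 14.9%) and 1 lower (1.69%, beside 12.9%), with a median change of 0.18. By probe there were 16 higher and 3 lower calls of 83 tested. The 14 calls became 9 without hSRY-OFF replicate 1 and 8 without hSRY-OFF replicate 2. In the same fits the share of all tested probes called fell from 26.9% to 11.9% and 12.6%. No further gene of cholesterol synthesis passed in limma among the 5 tested, whose median change was -0.15. No gene of sterol uptake, transport and storage passed by its brightest probe, of 9 tested, although another probe of the lipoprotein receptor Vldlr (ILMN_1218264) rose by 0.41 (adjusted p = 0.036), a call lost when any array but hSRY-ON replicate 3 was left out (adjusted p = 0.0563 to 0.13).

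The 2 called genes of the machinery that processes SREBPs moved in opposite directions. Mbtps1, the protease that makes the first cut in SREBPs, read 11.12, 11.12 and 10.94 in hSRY-OFF and 10.36, 10.61 and 10.61 in hSRY-ON (ILMN_1239494). It fell by 0.53 (limma, adjusted p = 0.0234), a call lost without hSRY-OFF replicates 1 and 2 (adjusted p = 0.096 and 0.0936) and under median scaling (adjusted p = 0.0715). Erlin1, a membrane protein that restrains SREBPs with the Insig proteins, read 8.56, 8.38 and 8.58 in hSRY-OFF and 9.42, 9.71 and 9.10 in hSRY-ON, and rose by 0.91 (adjusted p = 0.0112, or 0.0513 without hSRY-OFF replicate 2).

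Apoe and Abcg1 held the largest rises of this wider list. They were 2 of 5 tested genes of sterol export and liver X receptors, or 40% called higher, beside 14.9% of all genes. Apoe, the apolipoprotein that carries cholesterol out of cells, read 10.59, 10.92 and 10.98 in hSRY-OFF and 12.22, 12.91 and 12.64 in hSRY-ON, a rise of 1.76 ± 0.203 (SE, limma, adjusted p = 0.00227). The gap between the groups was far wider than the spread within either. Abcg1, a cholesterol exporter and liver X receptor target, read 7.46, 7.66 and 7.84 in hSRY-OFF and 8.98, 10.84 and 9.03 in hSRY-ON. Its rise of 1.96 ± 0.478 (SE, adjusted p = 0.0245) was uneven, with replicate 2 far above the others, and the call was lost without any hSRY-OFF array (adjusted p = 0.0603 to 0.0837). The liver X receptor genes Nr1h2 and Nr1h3 did not pass. Also listed in this group, Cyp27a1 did not pass (0.25 on its brightest probe), Abca1 was not detected on any array and Ch25h was not tested. Macrophages express both Apoe and Abcg1 strongly. Of 8 tested macrophage markers 5 were called higher (Cd14, Cd68, Lgals3, Marco, Mrc1) and none lower, beside 14.9% and 12.9% of all genes. Csf1r, Adgre1 and Cd52 did not pass, with changes of 0.41, 0.09 and -0.31 on their brightest probes. The summed linear level of all 10 listed was 7240 to 8690 in hSRY-OFF and 13500 to 17500 in hSRY-ON. Itgax and Msr1 were not detected on any array. The part of macrophages in the Apoe and Abcg1 values was not tested.

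On the fatty acid side, 4 of 11 genes of synthesis and 2 of 9 genes of elongation, desaturation and activation were called by their brightest probe, all higher. These shares were 36.4% and 22.2%, beside 14.9% of all genes called higher. Acss2, which makes cytosolic acetyl-CoA from acetate and is another known SREBP target, read 9.70, 9.60 and 9.78 in hSRY-OFF and 10.81, 10.80 and 10.42 in hSRY-ON. It rose by 0.99 (limma, adjusted p = 0.00491), with no overlap. The mitochondrial form Acss1 rose by 0.95 (adjusted p = 0.0152, lost without hSRY-OFF replicates 1 and 2 at 0.0639 and 0.0631). The NADPH-making enzymes Pgd and G6pdx rose by 0.62 (adjusted p = 0.00758) and 0.50 (adjusted p = 0.0314), and G6pdx lost its call when any array but hSRY-ON replicate 1 was left out (adjusted p = 0.0633 to 0.118) and under median scaling (adjusted p = 0.0628). The median of the fatty acid synthesis group was 0.38. Acsl1 and Acsl4, which activate fatty acids to acyl-CoA, rose by 0.87 (adjusted p = 0.00521, or a rise of 0.51 with 1 scaling factor per array and no background correction) and 0.68 (adjusted p = 0.00877). Another probe of Tecr, a reductase of fatty acid elongation (ILMN_2710784), fell by 0.39 (adjusted p = 0.0459), a call lost when any array but hSRY-ON replicate 3 was left out (adjusted p = 0.0579 to 0.141), under cyclic loess (adjusted p = 0.0625) and under median scaling (adjusted p = 0.106), while its brightest probe did not pass (-0.38, adjusted p = 0.0643).

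Of 14 genes that build glycerolipids and phospholipids, 4 were called higher (28.6%, beside 14.9% of all genes) and none lower. Lpin2, a phosphatidate phosphatase, read 7.20, 7.15 and 7.26 in hSRY-OFF and 8.67, 9.54 and 8.39 in hSRY-ON. Its rise of 1.67 ± 0.28 (SE, limma, adjusted p = 0.0073) was well beyond the spread of either group, and was 1.10 without background correction. Dgat1, which makes triglyceride from diacylglycerol, read 7.61, 7.76 and 7.93 in hSRY-OFF and 8.35, 9.59 and 8.54 in hSRY-ON. It rose by 1.06 ± 0.316 (SE, adjusted p = 0.046), by 0.67 without hSRY-ON replicate 2, and lost its call on leaving out hSRY-ON replicate 3 or any hSRY-OFF array (adjusted p = 0.0521 to 0.138), with no filter on detection (adjusted p = 0.0733), under median scaling (adjusted p = 0.0539) and with 1 scaling factor per array and no background correction (adjusted p = 0.0679). Agpat2, an acyltransferase, rose by 0.70 (adjusted p = 0.009), and Chpt1, which finishes phosphatidylcholine, rose on all 3 of its probes by 0.50 to 0.70. The brightest Chpt1 probe was called under each alternative, while ILMN_2740151 lost its call on leaving out hSRY-ON replicate 2 or any hSRY-OFF array (adjusted p = 0.0553 to 0.0831) and ILMN_2740149 on leaving out hSRY-OFF replicate 2 (adjusted p = 0.0528).

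**Figure D5:**
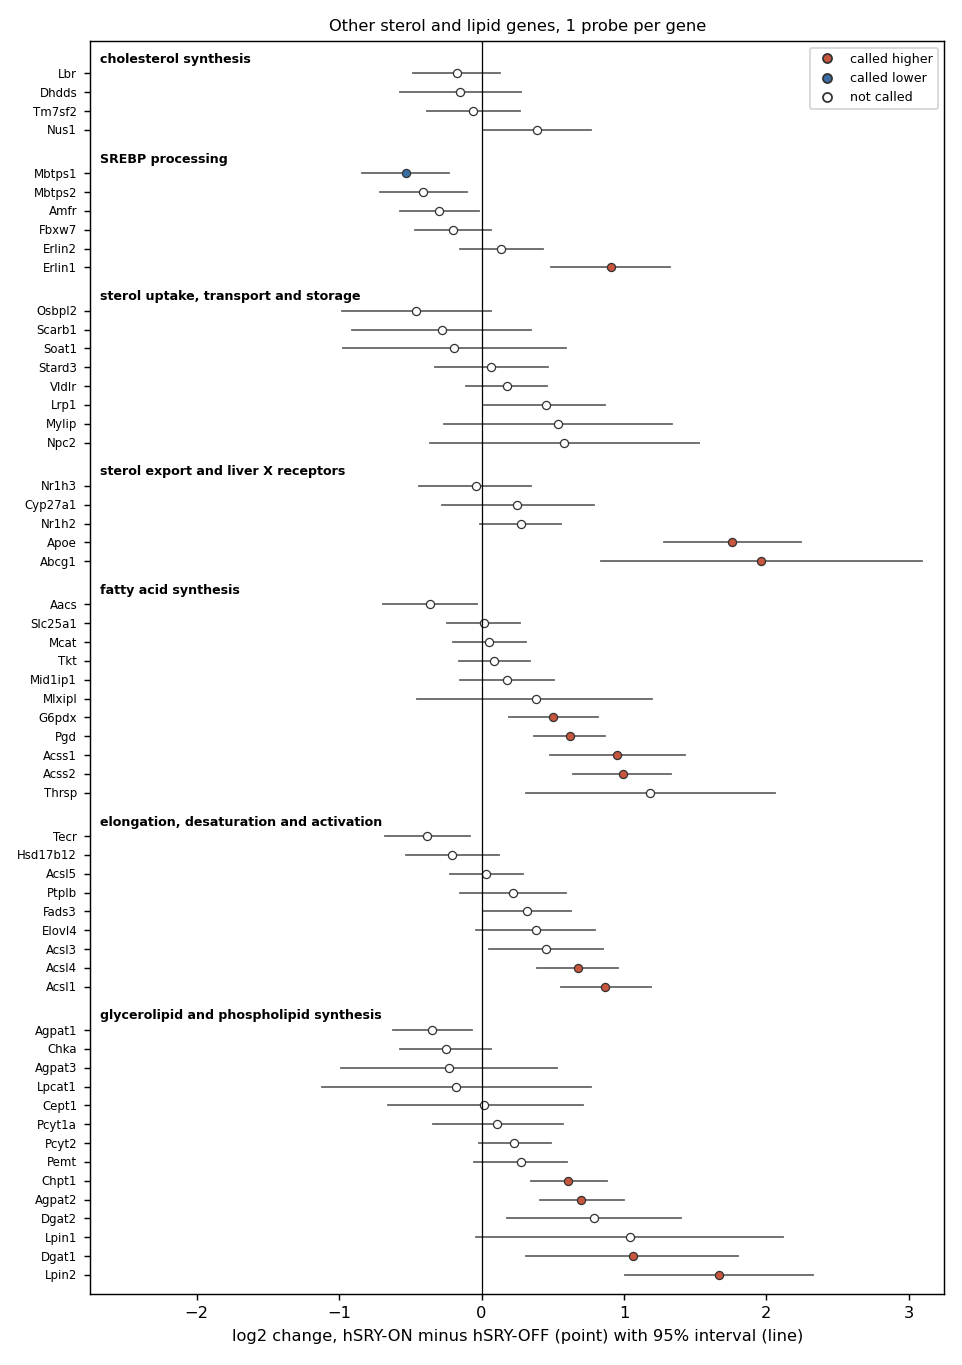
Change of each further sterol or lipid gene, as normalized log2 intensity in hSRY-ON minus hSRY-OFF (x axis), with its 95% interval and 1 probe per gene, grouped by role. Of the filled points 13 lie above 0 and 1, Mbtps1, lies below it, and tested genes that are not reported here are not drawn.

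The whole lung was sampled, so fewer cells of a type and less RNA per cell cannot be told apart in any of these values. Marker genes of several lung cell types differed between the groups. Over all genes, 14.9% were called higher and 12.9% lower. Of 10 alveolar type II markers, 4 were called higher (Abca3, Napsa, Sftpb, Sftpd) and none lower. All 10 were detected on every array. Their summed linear level was 82400 to 84800 in hSRY-OFF and 99600 to 104000 in hSRY-ON. Among those that did not pass, Sftpc, Lamp3 and Etv5 had changes of -0.25, -0.31 and -0.30. The changes of Sftpa1, Slc34a2 and Muc1 were 0.41, 0.28 and 0.21. Of 6 tested lipofibroblast markers, Lpl and Plin2 were called higher and none lower. Pparg, Tcf21, Pdgfra and Fgf10 did not pass by their brightest probes, with changes of 0.64, 0.23, 0.19 and -0.34. Fabp4 was not detected on any array. The sum over all 7 listed was 19400 to 21000 in hSRY-OFF and 23600 to 34100 in hSRY-ON. Within it, Lpl had mean log2 levels of 12.15 and 13.35. Of 4 club cell markers 1 was called (Cyp2f2, higher, with mean log2 levels of 13.21 in hSRY-OFF and 14.40 in hSRY-ON). Scgb1a1, Scgb3a2 and Aldh1a7 did not pass by their brightest probes, with changes of 0.01, 0.48 and 0.75. Another Scgb3a2 probe (ILMN_2835481) rose by 1.52 (limma, adjusted p = 0.00166). The club cell sum was 52300 to 54300 in hSRY-OFF and 62500 to 77500 in hSRY-ON. Endothelial markers went the other way, with Cdh5, Cldn5 and Tie1 lower of 4 tested and a sum over all 5 listed of 28600 to 31000 in hSRY-OFF and 18800 to 21500 in hSRY-ON. Of 9 listed fat cell markers 4 were not detected on any array (Cidec, Lep, Plin1, Retn), and of 2 tested Cidea rose. Of 10 listed hepatocyte markers 5 were not detected on any array (Alb, Apoc3, Cyp7a1, Fgb, Ttr), and the 3 tested (Ahsg, Apoa1, Trf) rose. The tested probes of Ahsg and Apoa1 exceeded background in 3 hSRY-ON mice and 0 hSRY-OFF mice. These probes met the filter through hSRY-ON alone, which left little room for any direction but a rise. Only the Trf probe exceeded background in every mouse. The levels summed over each whole list, undetected probes included, were 281 to 336 in hSRY-OFF and 377 to 391 in hSRY-ON for fat cells, and 5590 to 6090 and 7580 to 10700 for hepatocytes. Most of the hepatocyte sum was Trf alone, with mean log2 levels of 12.47 in hSRY-OFF and 13.00 in hSRY-ON. Those of Ahsg were 5.06 and 7.29. The part of these cell types in the values of the sterol and fatty acid genes was not tested.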

How the data were processed

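The authors deposited, for each probe and array, a bead intensity on a linear scale, neither background-corrected nor normalized between arrays, and a detection p-value. The study normalized and tested its arrays with TCC, a package for counts, so limma 3.58.1 in R 4.3.3, the tool in the submitters' processing notes, was used here. The software that summarised the beads is not given in the sources used here. Background was removed by normexp, with its level taken from the detection p-values, and 16 was added before quantile normalization and conversion to log2, which compresses the changes of dim probes. A probe was tested if its detection p was under 0.05 on 3 or more of the 6 arrays (13841 probes, or 53.9%). Groups, with 3 mice each from the sample labels, were compared by lmFit and eBayes without covariates, two-sided, with Benjamini-Hochberg adjustment over all tested probes. The 95% intervals come from the same fit and are not adjusted. The tested probe with the highest mean represented its gene. The scripts were tested on simulated data.

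Per-array values are given for, in each role group, the 3 called genes of largest change, any called gene of opposite direction, and Insig1, Insig2, Srebf1, Srebf2, Scap, Fasn and Scd1. Of the wider list they are given for the 4 largest calls, and genes named by the rule whatever their result are not reported here. Other genes with per-array values were chosen after their values were seen. Members and lists were chosen with earlier results of these data known. Alternatives covered background, normalization, filter, variance model, array weights, the replicate number as a block, arrays left out and the threshold. Lipa, Tecr and Lpcat1 were matched by older symbols through RefSeq synonyms. Ufd1l, Osbp and Acacb were not analysed here. The number of arrays limits the precision.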

Additional observations from a re-analysis of the deposited data

How the results depend on the processing

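The number of member probes called, 13, was between 11 and 15 under the alternatives for background, normalization, filter, variance model and array weights. At an adjusted p under 0.01 it was 3 (7.89%, beside 9.58% of all probes), all lower (0 higher), and 8 genes of the wider list were called. With 1 scaling factor per array and no background correction, 2 member probes were higher and the median change of the member genes was -0.24, and without background correction that median was -0.20. When an array was left out, the member probes called ranged from 3 to 16, those higher from 0 to 2, those lower from 3 to 14, the median change from -0.41 to -0.24 and the called genes of the wider list from 8 to 19. No member gene named above as called changed direction.

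Samples with the same replicate number shared only a number: their deviations from the group means correlated at -0.107, 0.096 and -0.093. With the replicate number as a block 8 member probes were called (21.1%, beside 19.2% of all probes), all lower (0 higher). The cause of these differences was not tested. Fasn and Idi1 could not be assessed because their signal was at or near background.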
